A study of Homo sapiens with 6 samples.

Results

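Cytosolic nucleic acid sensors, the adaptors and kinases that relay their signal, and the interferon regulatory factors IRF3 and IRF7 were examined in OVCAR3 cells with NUF2 knockdown. The group holds 10 genes chosen by name, out of 19973 genes listed in the deposited table. They are the sensors IFI16, CGAS, IFIH1 and the DNA exonuclease TREX1, the adaptors STING1 and MAVS, the kinases TBK1 and IKBKE, and the factors IRF3 and IRF7. All 10 genes were listed, 9 had reads and 9 passed the filter on low counts. The number of genes tested was 12874.

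OVCAR3 is an established human ovarian cancer cell line. The control cells were labelled wild type and carried shNC, a hairpin with no stated target, and the knockdown cells carried shNUF2, a hairpin against NUF2, which encodes a subunit of the kinetochore. Cells of both groups were selected with puromycin as stable lines, and each group was sequenced in 3 libraries of stranded mRNA. A single hairpin against NUF2 was used for these libraries, and the sources used here do not say whether a line is a clone or a pool, how long the cells were cultured, or whether the libraries of a group came from separate cultures. The p-values therefore measure only the spread between these libraries, and an effect of NUF2 knockdown cannot be told apart from another difference between the lines.

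Double-stranded DNA in the cytosol is sensed by cGAS, which makes the cyclic dinucleotide cGAMP, and cGAMP activates STING on the endoplasmic reticulum. Double-stranded RNA is sensed by MDA5, the product of IFIH1, and by RIG-I, and both act through MAVS on mitochondria. Both routes meet at the kinases TBK1 and IKKε, which phosphorylate IRF3 and IRF7, and these factors then switch on interferon genes. These switches act on proteins, and the values below are mRNA levels only.

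The libraries held 13057534 to 16995452 counted reads, and reads fell on 14582 to 14691 genes with shNC and on 15435 to 15536 genes with shNUF2. The reads on NUF2 numbered 903, 1096 and 1092 in the shNC libraries and 281, 290 and 384 in the shNUF2 libraries, or 65.2 ± 2.94 and 22.9 ± 2.40 normalized counts, as CPM (SD, n = 3), in the direction its label gives. Of 10 markers of ovarian carcinoma epithelium, KRT7, KRT8, KRT18, MSLN, MUC16 and PAX8 were present. EPCAM was low, at 2.75 to 4.22 CPM with shNC and 4.52 to 6.75 CPM with shNUF2. CDH1 was at most 2.07 CPM, and WT1 and SOX17 were at most 0.519 and 1.08 CPM. The sum of these 10 markers was 1521 to 1625 CPM with shNC and 1665 to 1775 CPM with shNUF2, and of 8 tested 4 were higher, such as KRT8 at 328 to 349 and 665 to 726 CPM, and 3 were lower, such as MSLN at 382 to 410 and 232 to 234 CPM. The summed level of 10 leukocyte markers was 2.04 to 3.63 CPM with shNC and 5.19 to 8.62 CPM with shNUF2, where MS4A1 was at 0 throughout and PTPRC at most 0.846 CPM. The sum of 8 fibroblast markers was 84.0 to 90.6 CPM with shNC and 69.0 to 76.5 CPM with shNUF2, with PDGFRA at 0, where COL1A1 made up most of it and was lower while DCN was higher, at 2.50 to 4.57 and 7.78 to 9.64 CPM. That of 4 endothelial markers was 1.75 to 3.38 and 3.41 to 5.0 CPM, and of 2 tested CDH5 was higher, at 0.0626 to 0.233 and 1.11 to 1.80 CPM, while PECAM1 overlapped between the groups. The part of these markers in the results below was not tested.

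Under shNUF2, 6 of the 9 tested genes were higher, 2 were lower and IFIH1 was not called (edgeR quasi-likelihood test, Benjamini-Hochberg adjusted p under 0.05 over all genes tested). The highest fold changes were those of IRF7, STING1 and IFI16, each 1.70-fold to 1.85-fold, while MAVS had the lowest, at 0.486 of its level with shNC. IRF3 was 0.789-fold of its control level, and TBK1, CGAS and IKBKE were higher by 1.19-fold to 1.21-fold. Among all genes tested, 67.6% were called, with 33.9% higher and 33.8% lower, and against this background the 8 calls among 9 genes are given as a description. The median log2 fold change of the 9 genes was 0.27, beside -0.01 for all genes tested.

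For 8 of the 9 genes, and for 70.6% of all genes tested, the CPM of both groups did not overlap. By the thresholds of the study, read here as an absolute log2 fold change above 1 and p under 0.05 before adjustment, MAVS alone was differentially expressed, and 13.6% of all genes tested passed. MAVS lies just beyond the fold threshold, and on the log2(FPKM + 1) scale none of the 9 genes passed it. With 3 libraries against 3, an exact two-sided permutation test of a single gene cannot go below p = 0.10. In bulk RNA, fewer cells that express a gene and less RNA per cell cannot be told apart.

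**Figure D1:**
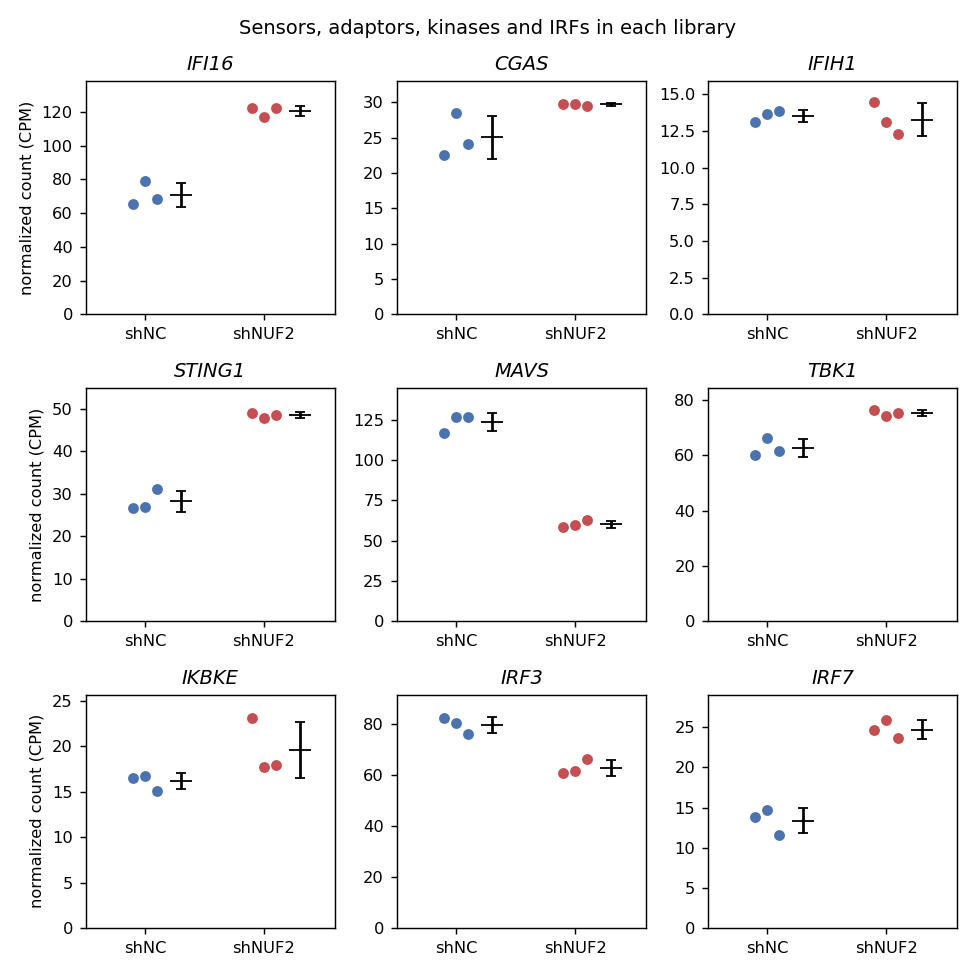
Normalized counts as CPM (vertical axes from 0) of the 9 genes with reads in each library, with shNC in blue and shNUF2 in red, and the mean and SD (n = 3) drawn beside the points. MAVS with shNUF2 sits between 58.4 and 62.6 CPM, below all shNC libraries, while the shNC libraries of IFIH1, at 13.1 to 13.9 CPM, lie within the range of the shNUF2 libraries, 12.3 to 14.5 CPM.

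Of the DNA sensors IFI16 and CGAS, IFI16 had the larger change. IFI16 is a sensor of the PYHIN family that acts in the nucleus and the cytosol and works with cGAS and STING. It stood at 65.1, 79.0 and 68.1 CPM with shNC and at 122, 117 and 123 CPM with shNUF2. All shNUF2 libraries were above all shNC libraries, and the lowest of them exceeded the highest control by more than the range of the controls. The mean rose from 70.7 ± 7.28 to 121 ± 3.19 CPM (SD, n = 3), a log2 fold change of 0.77 (SE 0.06, 95% interval 0.65 to 0.89, edgeR adjusted p = 9.83e-12).

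CGAS encodes the enzyme that makes cGAMP on binding DNA. Its level was 22.5, 28.5 and 24.1 CPM with shNC and 29.8, 29.8 and 29.5 CPM with shNUF2. The shNUF2 libraries were nearly equal, and the gap between them and the highest control was smaller than the range of the controls. The means were 25.0 ± 3.08 and 29.7 ± 0.163 CPM (SD, n = 3), with a log2 fold change of 0.24 (SE 0.09, 95% interval 0.06 to 0.43, edgeR adjusted p = 0.0206). This call was lost without shNC replicate 1 (0.17, edgeR adjusted p = 0.120) and without shNC replicate 3 (0.21, edgeR adjusted p = 0.0720). It was also lost when limma was applied to log2 FPKM (adjusted p = 0.0585 and 0.0555 with pseudocounts of 1 and 0.1). Of the exon bases of CGAS, 4.33% lie opposite DDX43 on the other strand.

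IFIH1 encodes MDA5, the sensor of long double-stranded RNA. It was at 13.1, 13.6 and 13.9 CPM with shNC and at 14.5, 13.1 and 12.3 CPM with shNUF2. Replicate 1 of shNUF2 was above every control and the other 2 libraries were below, replicate 2 by less than the printed digits show, so that the groups overlapped. The means were 13.5 ± 0.414 and 13.3 ± 1.10 CPM (SD, n = 3), and the log2 fold change of -0.03 (SE 0.12, edgeR adjusted p = 0.828) had a 95% interval of -0.27 to 0.21. The exact permutation test gave p = 0.6 for IFIH1 (n = 3 per group). Among all genes tested, 4.33% had a smaller absolute log2 fold change.

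TREX1, the exonuclease that degrades cytosolic DNA before cGAS can bind it, had 0 reads in all 6 libraries. In GENCODE release 29 it lies on chromosome 3 of GRCh38 from 48465811 to 48467645 on the plus strand, the identical position given in the deposited table. All of its exon bases there (100%) are also exon bases of ATRIP on the same strand. ATRIP, whose product partners the checkpoint kinase ATR, was given 229, 288 and 284 reads in the controls and 177, 169 and 176 with shNUF2. Its level was 16.9 ± 1.01 and 12.6 ± 0.791 CPM (SD, n = 3), a log2 fold change of -0.42 (SE 0.11, edgeR adjusted p = 0.00177).

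Genes that share their exons with another listed gene on the same strand were mostly at 0 in this table. Of 337 genes with at least 95% of exon bases shared, 302 (89.6%) had no read in any library, beside 317 of 1981 (16.0%) with a smaller share and 2426 of 17558 (13.8%) with none. A read on such bases could belong to either gene, so the 0 of TREX1 cannot be read as a lack of expression, and no fold change is given. If the reads had been assigned to TREX1 alone, a count of 0 would allow up to 3 reads, or 0.174 to 0.231 CPM by library, for counting error only.

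**Figure D2:**
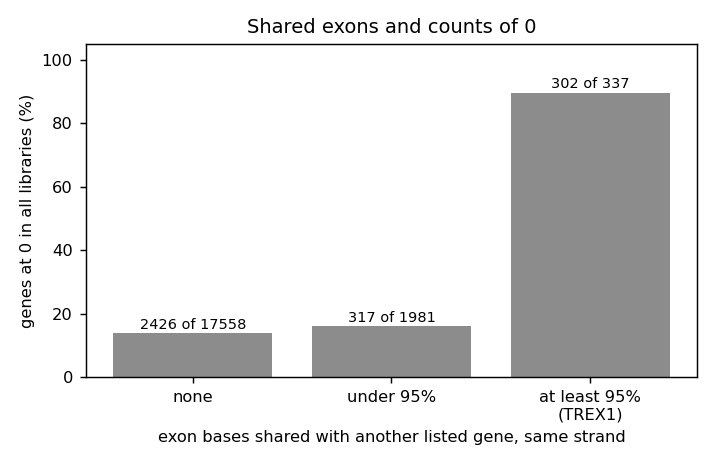
Share of genes with 0 reads in all 6 libraries (vertical axis, percent) for genes grouped by the share of their exon bases that another listed gene covers on the same strand. TREX1 falls in the last bar, where 302 of 337 genes were at 0, against 2426 of 17558 genes with no shared base.

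The first 60 bases of the TREX1 coding sequence, which encode the start of the exonuclease, show the overlap. They lie at chr3:48466656-48466715 of GRCh38 on the plus strand, and the same run is found in 3 of the 10 ATRIP transcripts of GENCODE release 29. Capitals mark the start codon.
TREX1-205: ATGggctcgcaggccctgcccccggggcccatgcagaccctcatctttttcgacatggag
The transcript TREX1-205, of 1471 bases, lies wholly in 2 ATRIP transcripts. In the other 5 TREX1 transcripts, 91.3% to 96.3% of all windows of 50 bases were found in an ATRIP transcript.

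The adaptors of the DNA and the RNA route went in opposite directions. STING1 encodes the adaptor that cGAMP binds. It was at 26.7, 26.8 and 31.2 CPM with shNC and at 49.1, 47.8 and 48.7 CPM with shNUF2. All shNUF2 libraries were above the controls, and they lay closer together than the controls did. The mean rose from 28.2 ± 2.55 to 48.5 ± 0.679 CPM (SD, n = 3), with a log2 fold change of 0.78 (SE 0.08, 95% interval 0.62 to 0.94, edgeR adjusted p = 1.18e-09).

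MAVS encodes the mitochondrial adaptor of MDA5 and RIG-I. It had 117, 127 and 127 CPM with shNC and 58.4, 59.5 and 62.6 CPM with shNUF2. Every shNUF2 library was well below every control. The mean fell from 124 ± 5.66 to 60.1 ± 2.17 CPM (SD, n = 3), a log2 fold change of -1.04 (SE 0.05, 95% interval -1.15 to -0.93, edgeR adjusted p = 2.53e-15). Among all genes tested, 87.5% had a smaller absolute log2 fold change. The log2 fold change of MAVS was -1.08 to -0.95 over 15 other settings.

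The genes whose pattern over the 6 libraries was most like that of MAVS were MAPKAPK5, PDCD4 and RCC2. Their root mean square differences from MAVS in centred log2 CPM were 0.0166, 0.0266 and 0.0272, and their log2 fold changes were -1.03, -1.04 and -1.0. MAPKAPK5 is a protein kinase downstream of p38, PDCD4 an inhibitor of translation and RCC2 a regulator of chromosome segregation. These genes were found by their likeness to MAVS, so their fold changes are a description.

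Within each library, the FPKM of STING1 divided by that of MAVS was 0.558, 0.519 and 0.602 with shNC and 2.06, 1.97 and 1.91 with shNUF2. STING1 mRNA was thus below MAVS mRNA per gene length in every control and above it in every shNUF2 library. The mean ratio went from 0.560 ± 0.0416 to 1.98 ± 0.0781 (SD, n = 3), or 3.54-fold, and the exact permutation test was at its smallest p of 0.10. The deposited length of STING1, 4798 bases, exceeds its 3850 exon bases in GENCODE release 29, and with the latter the mean ratio was 0.697 ± 0.0518 and 2.47 ± 0.0973 (SD, n = 3).

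**Figure D3:**
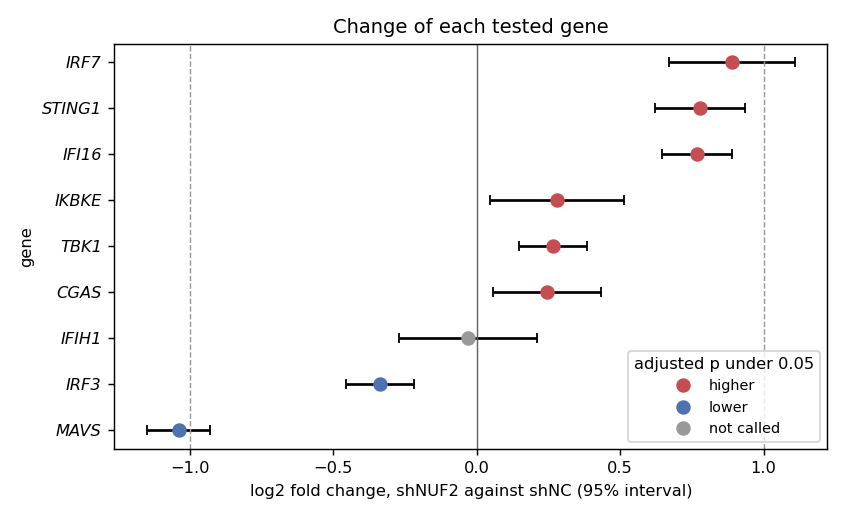
Log2 fold change of shNUF2 against shNC for the 9 tested genes (horizontal axis), with its 95% interval as bars and dashed lines at the fold threshold of 1 in each direction. IRF7, STING1 and IFI16 sit between 0.77 and 0.89, MAVS at -1.04, and the interval of IFIH1 crosses 0.

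Both kinases that phosphorylate IRF3 and IRF7 were slightly higher. TBK1, which is present in most cells, was at 60.1, 66.4 and 61.6 CPM with shNC and at 76.6, 74.4 and 75.2 CPM with shNUF2. The groups did not overlap, and the lowest shNUF2 library was above the highest control by more than the range of the controls. The mean rose from 62.7 ± 3.28 to 75.4 ± 1.09 CPM (SD, n = 3), a log2 fold change of 0.27 (SE 0.06, 95% interval 0.15 to 0.38, edgeR adjusted p = 0.000202).

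IKBKE encodes IKKε, the inducible relative of TBK1. It was at 16.5, 16.8 and 15.1 CPM with shNC and at 23.1, 17.7 and 17.9 CPM with shNUF2. Replicate 1 of shNUF2 stood above the other two, which were close to the controls. The means were 16.1 ± 0.895 and 19.6 ± 3.09 CPM (SD, n = 3), with a log2 fold change of 0.28 (SE 0.11, 95% interval 0.04 to 0.51, edgeR adjusted p = 0.0329). Without shNUF2 replicate 1 the log2 fold change was 0.14 (edgeR adjusted p = 0.292), and without shNC replicate 3 it was 0.23 (edgeR adjusted p = 0.115). The call was also lost when counts were scaled by library totals only (0.24, edgeR adjusted p = 0.0600) and with limma on log2 FPKM (adjusted p = 0.0862 and 0.0826 with pseudocounts of 1 and 0.1). The ratio of IKBKE to TBK1 in FPKM was 1.00 ± 0.0594 with shNC and 1.01 ± 0.145 with shNUF2 (SD, n = 3), and the groups overlapped (exact permutation p = 1). Its level near 1 depends on the deposited length of TBK1, 14716 bases, where the exons of TBK1 in GENCODE release 29 cover 4762 bases. With the latter length the ratio was 0.324 ± 0.0192 and 0.326 ± 0.0468 (SD, n = 3).

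The interferon regulatory factors also went in opposite directions. IRF3 encodes the factor that is present before any stimulus and starts the interferon response. Its level was 82.2, 80.5 and 76.0 CPM with shNC and 60.7, 61.5 and 66.3 CPM with shNUF2. All shNUF2 libraries were below all controls. The mean fell from 79.6 ± 3.19 to 62.8 ± 3.03 CPM (SD, n = 3), a log2 fold change of -0.34 (SE 0.06, 95% interval -0.46 to -0.22, edgeR adjusted p = 1.03e-05). Of its exon bases, 19.3% lie opposite BCL2L12 on the other strand. The library kit keeps strand, but the strand setting of the counting is not given in the sources used here.

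IRF7, which amplifies the interferon response and is itself an interferon-induced gene, was at 13.8, 14.6 and 11.6 CPM with shNC and at 24.6, 25.9 and 23.6 CPM with shNUF2. The groups were far apart relative to their ranges. The mean rose from 13.4 ± 1.55 to 24.7 ± 1.17 CPM (SD, n = 3), with a log2 fold change of 0.89 (SE 0.11, 95% interval 0.67 to 1.11, edgeR adjusted p = 4.28e-08). The ratio of IRF7 to IRF3 in FPKM went from 0.243 ± 0.0211 to 0.573 ± 0.0498 (SD, n = 3), or 2.36-fold, with no overlap between the groups (exact permutation p = 0.10).

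Levels of different genes were compared as FPKM, which divides the count by the deposited gene length. With shNC, IRF3 was the highest at 21.2 ± 0.83 FPKM, followed by IFI16 at 13.5 ± 1.46, MAVS at 10.6 ± 0.533 and CGAS at 6.07 ± 0.78 FPKM (SD, n = 3). STING1 at 5.95 ± 0.538, IRF7 at 5.18 ± 0.612, TBK1 at 4.31 ± 0.247 and IKBKE at 4.31 ± 0.244 FPKM came next, and IFIH1 was the lowest at 2.69 ± 0.0918 FPKM. From CGAS down to IKBKE, each gene overlapped with the next across libraries, so that the order of these neighbours is not set, although all libraries of CGAS and STING1 were above those of TBK1 and IKBKE.

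With shNUF2, IFI16 was the highest at 22.5 ± 0.452 FPKM and IRF3 followed at 16.3 ± 0.835 FPKM (SD, n = 3). STING1 and IRF7 came next at 9.98 ± 0.057 and 9.34 ± 0.49 FPKM, and CGAS was at 7.02 ± 0.068 FPKM. IKBKE at 5.09 ± 0.757, TBK1 at 5.05 ± 0.0259 and MAVS at 5.04 ± 0.202 FPKM overlapped with their neighbours, and IFIH1 remained the lowest at 2.57 ± 0.195 FPKM. MAVS thus moved from the third place to a level shared with IKBKE and TBK1, and IFI16 and IRF3 exchanged the first place. This order uses the deposited gene lengths. With the exon bases of GENCODE release 29 as the length, an alternative chosen after seeing the data, TBK1 was at 13.3 ± 0.764 FPKM with shNC and 15.6 ± 0.0799 FPKM with shNUF2 (SD, n = 3), above MAVS in both groups, and MAVS went from the fourth place to a level shared with IKBKE alone. STING1 was also higher by this length, at 7.42 ± 0.671 and 12.4 ± 0.071 FPKM, and IFI16 and IRF3 still exchanged the first place. The ratio of IFI16 to CGAS in FPKM, between the DNA sensors, went from 2.23 ± 0.0476 to 3.20 ± 0.0933 (SD, n = 3), or 1.43-fold, with no overlap (exact permutation p = 0.10).

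**Figure D4:**
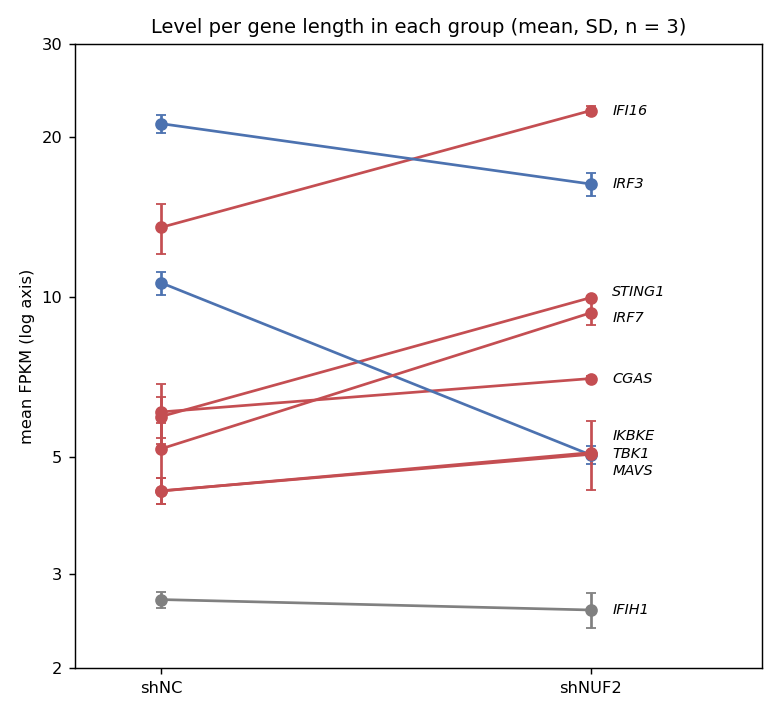
Mean FPKM of the 9 genes in each group (vertical log axis) with SD as bars (n = 3) and a line joining the groups, coloured red for genes called higher, blue for lower and grey for not called. The line of MAVS falls from 10.6 to 5.04 FPKM, crosses those of STING1, IRF7 and CGAS, and ends just below those of TBK1 and IKBKE. IFIH1 is the lowest in both groups.

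Promoter windows from 250 bases before to 50 bases after an annotated start were available for 6 of the 10 genes (RefSeq, GRCh38.p14, 7 windows). They were searched on both strands for an interferon-stimulated response element (GAAA, any 2 bases, GAAA), which 3.57% of 35116 promoter windows hold, and a gamma-activated sequence (TTCNNNGAA), which 7.66% hold. An NF-κB site (GGG, any 2 bases, TTTCC) is held by 1.91%, a GC box (GGGCGG) by 45.0% and a TATA box (TATAAA) by 11.5% of the windows. IFIH1 and MAVS are shown, since the first was not called and the second had the largest absolute change. Capitals mark every match.
IFIH1 promoter, chr2:162318635-162318934, minus strand: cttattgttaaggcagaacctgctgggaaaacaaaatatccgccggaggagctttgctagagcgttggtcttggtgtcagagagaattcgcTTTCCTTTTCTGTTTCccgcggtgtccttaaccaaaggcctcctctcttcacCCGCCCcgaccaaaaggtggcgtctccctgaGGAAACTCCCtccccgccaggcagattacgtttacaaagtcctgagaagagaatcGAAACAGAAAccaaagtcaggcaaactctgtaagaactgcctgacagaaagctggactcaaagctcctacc
MAVS promoter, chr20:3846584-3846883, plus strand: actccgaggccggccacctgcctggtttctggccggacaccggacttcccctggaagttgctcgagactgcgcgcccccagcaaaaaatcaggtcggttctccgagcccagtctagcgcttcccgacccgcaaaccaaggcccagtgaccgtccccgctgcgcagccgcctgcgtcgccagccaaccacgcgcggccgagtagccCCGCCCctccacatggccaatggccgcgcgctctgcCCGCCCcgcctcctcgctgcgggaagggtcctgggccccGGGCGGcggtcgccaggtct
The window of IFIH1 held 3 matches to the interferon-stimulated response element, of which those at -159 and -153 from the start overlap, as well as 1 NF-κB match and 1 GC box. The window of MAVS held 3 GC boxes and none of the other motifs, and its GC content was 71.7% beside a median of 58.7% over all windows. Of the other 5 windows, 1 of the 2 of IFI16 held a TATA box match at -249, and those of IKBKE, TREX1 and TBK1 held no match. A match is a description of these letters only.

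The other genes of the pathway were read from 79 names in 7 lists, of which 61 were tested. Of these, 23 were higher, 21 were lower and 17 were not called, and their median log2 fold change was 0.05. The balance turned with scaling by library totals only, which gave 18 higher and 25 lower, and with limma on log2 FPKM at both pseudocounts, which gave 19 and 24. The counts over all genes turned the same way, to 4094 higher and 4731 lower with library totals only and to 3993 and 4623 with limma on log2(FPKM + 1). Among all genes tested, 33.9% were higher and 33.8% lower, so that these counts, and those of the lists below, are given as a description and nothing particular to the lists is read from them. Their direction held under 3 other scalings of the counts for all 44 called genes, and the call held for 39. By the thresholds of the study, which 13.6% of all genes passed, 7 of the 61 passed, namely AIM2, OAS1, OAS2, NLRX1, TLR3, CCL5 and IRF9. OAS2 was at the threshold, with log2 fold changes of 0.9999 with upper quartile scaling and 0.97 with library totals only. IRF9 was chosen after its values were seen, because it is too low for the rule on named genes.

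**Figure D5:**
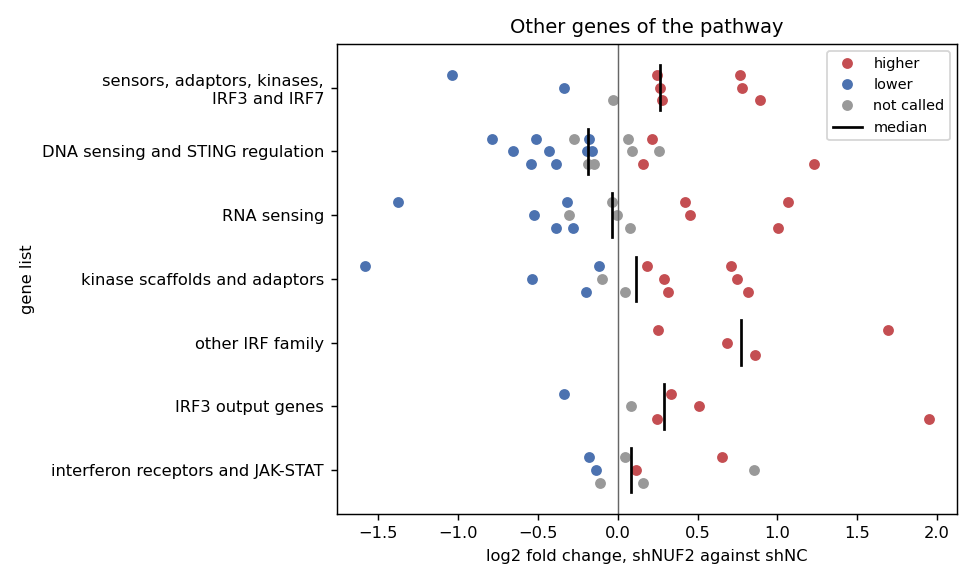
Log2 fold change of shNUF2 against shNC (horizontal axis) for each tested gene, by list, coloured red for higher, blue for lower and grey for not called, with a black line at the median of the list. The 9 genes described above have a median of 0.27, the DNA sensing list one of -0.19, and all 4 tested genes of the other IRF family lie above 0.

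In the list of DNA sensing and STING regulation, 3 of 18 tested genes were higher, 9 were lower and 6 were not called, with a median log2 fold change of -0.19. AIM2, the inflammasome sensor that neighbours IFI16 at a distance of 7328 bases, rose from 2.54 ± 0.316 to 5.99 ± 0.108 CPM (SD, n = 3; log2 fold change 1.23, SE 0.21, edgeR adjusted p = 1.17e-05). PRKDC, the catalytic subunit of the DNA-dependent protein kinase, fell by 0.79 on the log2 scale (SE 0.04, edgeR adjusted p = 9.02e-15). RNASEH2B, a subunit of the RNase that removes RNA from RNA-DNA hybrids, fell by 0.65 (SE 0.10, edgeR adjusted p = 4.27e-06).

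In the list of RNA sensing, 4 of 13 genes were higher, 5 were lower and 4 were not called, with a median of -0.03. NLRX1, a mitochondrial protein that binds MAVS and restrains it, fell from 26.4 ± 1.24 to 10.2 ± 0.708 CPM (SD, n = 3; log2 fold change -1.38, SE 0.11, edgeR adjusted p = 1.02e-11). It moved in the same direction as MAVS, while RIGI, the other sensor that acts through MAVS, rose from 26.1 ± 1.49 to 35.2 ± 1.28 CPM (SD, n = 3; log2 fold change 0.42, SE 0.08, edgeR adjusted p = 5.5e-05). OAS1 and OAS2, which make the oligoadenylate that activates RNase L, rose by log2 fold changes of 1.07 (SE 0.08) and 1.01 (SE 0.18).

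In the list of kinase scaffolds and adaptors, which also holds the sensor TLR3, 6 of 12 genes were higher, 4 were lower and 2 were not called, with a median of 0.12. TLR3, the endosomal sensor of double-stranded RNA, fell from 5.07 ± 0.841 to 1.69 ± 0.159 CPM (SD, n = 3; log2 fold change -1.58, SE 0.25, edgeR adjusted p = 3.64e-06). TRAF6, a ubiquitin ligase, and TRADD, an adaptor of death receptors that also binds MAVS, rose by log2 fold changes of 0.81 (SE 0.08) and 0.75 (SE 0.11).

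Of the 9 genes of the IRF family, 6 were tested, of which 5 were higher and IRF3 was the one lower, where 33.9% and 33.8% of all genes tested were. IRF1 rose by a log2 fold change of 0.86 (SE 0.11, edgeR adjusted p = 2.39e-07), close to the 0.89 of IRF7, and IRF5 rose by 0.69 (SE 0.21, edgeR adjusted p = 0.00487). IRF2 rose by 0.25 (SE 0.10, edgeR adjusted p = 0.0238), and this call was lost with scaling by library totals only (edgeR adjusted p = 0.0513). IRF9, the DNA-binding subunit of ISGF3, was counted 5, 12 and 16 times in the controls and 30, 24 and 40 times with shNUF2 (log2 fold change 1.69, SE 0.37, edgeR adjusted p = 0.000271). Of its exon bases, 48.4% are shared on the same strand with another listed gene.

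Interferon genes themselves were near or at 0. None of 11 interferon genes passed the filter, and 7 of them, with IFNB1 among them, had no read in any library. IFNL1 had 0 reads in each shNC library and 2, 0 and 1 in the shNUF2 libraries, which is not above the limit of 3 reads that a count of 0 allows. IFNE, chosen after its values were seen, was the one with at least 10 reads in a library, with 4, 4 and 7 reads in the controls and 12, 11 and 8 with shNUF2, and it was not tested. Reads on IFNA5 numbered 0 in each control and 3, 1 and 4 with shNUF2, and those on IFNA1 numbered 1, 0 and 0 in the controls and 5, 0 and 1 with shNUF2. These genes, also chosen after their values were seen, were too low to be tested. Over the whole table, too, reads fell on more genes with shNUF2, 15435 to 15536, than with shNC, 14582 to 14691. These few reads on interferon genes are therefore a description only.

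Of the genes that IRF3 switches on, 4 of 6 tested were higher, IFIT2 was lower and IFIT1 was not called, with a median of 0.29. CCL5, a chemokine, rose from 4.07 ± 0.657 to 15.9 ± 1.94 CPM (SD, n = 3; log2 fold change 1.95, SE 0.16, edgeR adjusted p = 2.00e-11), above the change of any of the 9 genes. ISG15, a ubiquitin-like protein, rose by a log2 fold change of 0.51 (SE 0.05, edgeR adjusted p = 4.81e-10), and IFIT2 fell by 0.34 (SE 0.11, edgeR adjusted p = 0.00655). IFIT1 had a log2 fold change of 0.08 (SE 0.14, edgeR adjusted p = 0.620).

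Of the 8 genes for interferon receptors and JAK-STAT signalling, 2 were higher, 2 were lower and 4 were not called, with a median of 0.08. TYK2, chosen after its values were seen, was called higher (edgeR adjusted p = 0.0497) although its groups overlapped. Its call was lost with upper quartile scaling and with library totals only (edgeR adjusted p = 0.0642 and 0.176). Among those not called, IFNAR2 and IL10RB share 44.2% and 38.1% of their exon bases on the same strand with another listed gene. IFNLR1, a subunit of the receptor for type III interferons, rose by a log2 fold change of 0.65 (SE 0.16, edgeR adjusted p = 0.000579). IFNAR1, a subunit of the receptor for type I interferons, and the kinase JAK1 fell by 0.18 (SE 0.06) and 0.14 (SE 0.04).

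The deposited table also lists Gene Ontology terms. Innate immune response and defense response to virus were each given for 9 of the 10 genes, all but IKBKE, beside 2.61% and 1.04% of all genes listed. Positive regulation of type I interferon production was given for 6 of the 10, beside 0.275% of all genes. Among the genes with the first 2 terms, STING1, IFI16, IRF7, CGAS and TBK1 were higher, MAVS and IRF3 were lower and IFIH1 was not called, and among those with the third, IRF3 was the one lower.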

How the data were processed

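The authors extracted total RNA from OVCAR3 cells with TRIzol and prepared stranded mRNA libraries, which were sequenced on an Illumina instrument. Per the labels, the submitters' processing notes name cutadapt, HISAT and HTSeq and the build GRCh38.p13, with no versions. The authors deposited read counts per gene without normalization, FPKM values and the gene length in base pairs. Each FPKM equals the count scaled by gene length and library total. How reads shared by overlapping genes were assigned is not given in the sources used here.

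Genes were kept by filterByExpr, scaled by TMM and compared with the quasi-likelihood test of edgeR 4.0.16 in R 4.3.3, in a single model of all 6 libraries without covariates. CPM were taken from the TMM-scaled library sizes. The standard error is the ratio of the log2 fold change to the root of its F statistic, and p-values were adjusted by Benjamini-Hochberg over the 12874 genes tested. The common biological coefficient of variation was 4.93%. A count of 0 was read as at most 3 reads, and intervals and limits of this kind cover counting error only. Gene models came from GENCODE release 29, in which 19876 of the 19973 listed genes were placed, and promoters from RefSeq. Tests were tried on simulated counts.

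The genes, the pathway lists and the marker lists were chosen with earlier results of these data known. Named pathway genes were up to 3 per list with the largest absolute log2 fold change among those with adjusted p under 0.05 and an average of at least 1 log2 CPM, together with IFNB1, IFNL1, IFIT1, ISG15 and RIGI. One further gene of this rule is not reported here. For the gene with the largest change, the 3 genes of nearest pattern over the libraries were named. Alternatives were other scalings, DESeq2 1.42.0, stricter and looser filters, a block for the replicate number, leaving out each library, limma 3.58.1 on log2 FPKM with pseudocounts of 1 and 0.1, the study's thresholds with adjusted p-values and, chosen after seeing the data, FPKM by exon bases of GENCODE release 29.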

Additional observations from a re-analysis of the deposited data

How the results depend on the processing

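Of 282 values recomputed under the alternatives, 270 kept their call, or stayed within 1.5 times for counts. No called value changed direction, while IFIH1, not called, was between -0.10 and 0.02 on the log2 scale. The 9 single-gene calls that were lost were 4 of CGAS and 5 of IKBKE. Without each library in turn, 4 to 6 of the 9 genes were higher and 2 were lower. The number of genes past the thresholds of the study was 1748, and it was 1153 when each library had to reach 1 CPM, where fewer low genes are tested, 636 with limma on log2(FPKM + 1), where the pseudocount shrinks the changes of low genes, and 2404 with no filter. On log2(FPKM + 1), 0 of the 9 genes passed these thresholds, since the log2 fold change of MAVS was -0.95. Library totals only moved the median log2 fold change of all genes from -0.01 to -0.05. When a replicate block was added, 6 of the 9 genes were higher and 2 lower, and the log2 fold change of MAVS was -1.04. The deviations of same-numbered libraries correlated by 0.02, 0.00 and -0.03, so that no deviation common to a replicate number was seen. These correlations cannot tell whether libraries shared a culture or a batch. Interferon genes and TREX1 had too few reads for a comparison.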
